A study of Mus musculus with 2 samples.

Results

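Transcripts of cadherins and protocadherins were compared between ureters of mouse embryos labelled Tbx2/Tbx3cDKO and control ureters at stage E18.5. The genes were all those whose array name begins with Cdh and a digit or with Pcdh, leaving out Cdh5, Cdh16 and Cdh19, and each was represented by its brightest probe. This gave 68 of 31791 named genes on the array, of which 55 were bright enough to be tested, against 23345 tested genes in all. The 68 genes were covered by 89 probes.

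RNA labelled cDKO came from NMRI embryos with 1 Cre allele of Tbx18 and with both alleles of Tbx2 and both of Tbx3 floxed. Control RNA came from NMRI embryos with no Cre allele and at least 1 floxed allele of each of the same genes. Cre is thus driven by the locus of Tbx18, a gene of the mesenchyme around the ureteric epithelium. Each of 2 Agilent arrays held both RNAs in different dyes. Replicate 1 was from males, with the RNA labelled cDKO in red (AlexaFluor647), and replicate 2 was from females, with that RNA in green (AlexaFluor555). Sex, dye orientation and replicate therefore cannot be told apart. The number of embryos behind each RNA, and whether they were pooled, is not in the labels, and p-values here do not measure the spread between embryos.

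Cadherins are membrane proteins that hold neighbouring cells together through calcium-dependent contacts of their extracellular repeats. Classical cadherins bind catenins inside the cell and so connect to actin. Protocadherins lack the catenin-binding tail, and many of them are known from the sorting and recognition of neurons. The genes of the clustered protocadherins (alpha, beta and gamma) lie side by side on a single chromosome, and in the alpha and gamma clusters each variable exon is spliced to constant exons that the whole cluster shares. TBX2 and TBX3 are T-box transcription factors known mostly as repressors, and both have been described as repressors of the E-cadherin gene CDH1 in human melanoma cells.

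Per channel, 72.1% to 81.6% of spots with a gene were well above background, and the number of arrays limits the precision. Both targeted genes were called higher in the RNA labelled cDKO, Tbx2 at log2 ratios of 1.04 and 0.44 (male, female; limma, adjusted p = 0.0273) and Tbx3 at 0.78 and 0.55 (adjusted p = 0.0305). Tbx18, whose locus carries Cre, was also higher, at 0.81 and 0.81 (adjusted p = 0.00778). Which exons are lost on recombination is not given, so these probes do not check the genotype. The female RNA labelled cDKO went against its label in part. It was well above background for the Y-linked genes Ddx3y and Eif2s3y, at 12.6% and 9.52% of their signals in the male RNA labelled cDKO, whereas the female control RNA was not. The called genes are therefore given with their ratio on each array, and the ratio in males leaves that RNA out. All 14 urothelial and all 11 smooth muscle markers used below were well above background in all 4 RNAs.

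Of the 55 tested genes, 5 were higher and 1 was lower in the RNA labelled cDKO (limma, Benjamini-Hochberg adjusted p under 0.05 over 29274 probes). The higher genes were the classical cadherins Cdh2, Cdh4 and Cdh11, the protocadherin Pcdh8, and a gamma protocadherin probe named Pcdhga9. The lower gene was Pcdh7. These 6 genes were 10.9% of those tested, against 4.45% of all tested genes. By direction, 9.09% were higher, against 2.18% of all tested genes, and 1.82% were lower, against 2.27%. No test of that difference in share was made. None of the 55 changed at least 2-fold in the same direction on both arrays, a size that 0.411% of all tested genes reached upward and 0.728% downward. The median log2 ratio (labelled cDKO over control) was 0.053 over the 55 genes and 0.0047 over all tested genes. On 24 of the 55 the arrays gave opposite signs, as they did on 9399 of all 23345 tested genes. An unadjusted p under 0.05 was reached by 11 of the 55 and by 3744 of all 23345 genes.

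**Figure D1:**
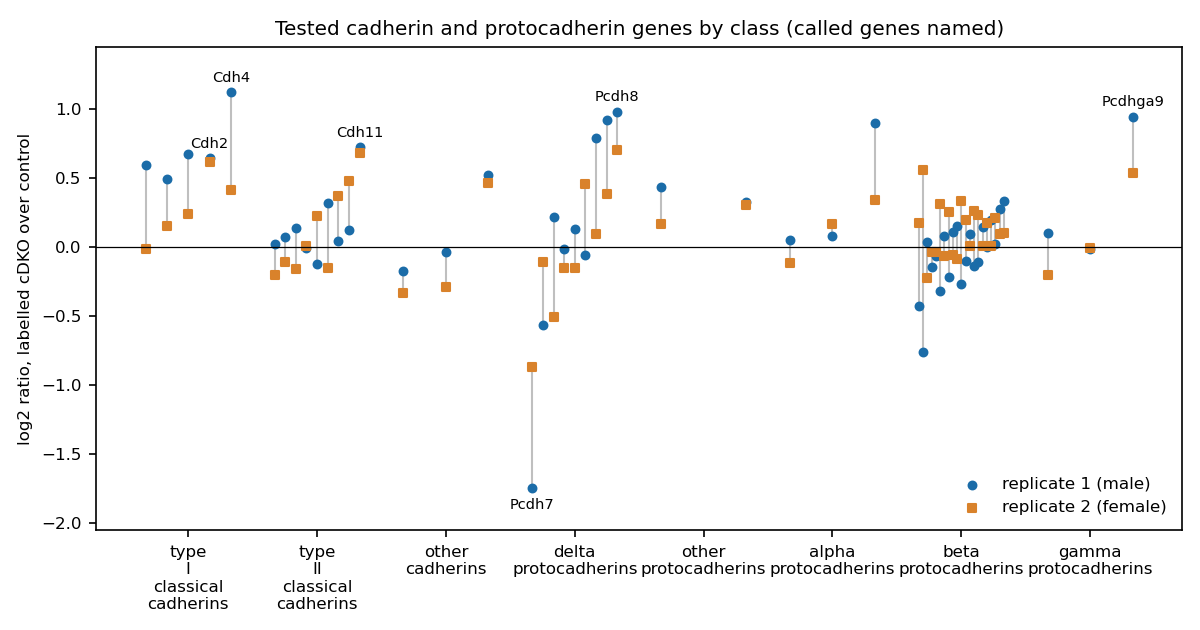
Log2 ratios of labelled cDKO over control RNA for the 55 tested genes by class, with the male array as circles, the female array as squares and a line joining the arrays of a gene. The 6 called genes are named, Pcdh7 stands alone below -0.8 on both arrays, and the beta protocadherins lie around 0 with mean ratios between -0.12 and 0.22.

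The type I classical cadherins, the group that builds adherens junctions, had a median log2 ratio of 0.46. All 5 were tested, 2 were higher and none was lower. Cdh2 encodes N-cadherin, the classical cadherin of many mesenchymal, muscle and neural cells. Its processed signals were 2634 and 1917 (male, female) in the RNA labelled cDKO, against 1708 and 1243 in control RNA. The RNA labelled cDKO was higher within each array, by 0.65 and 0.62. The mean was 0.63 ± 0.020 (SD, n = 2), or 1.55-fold (limma, adjusted p = 0.0378), the call nearest to the threshold. A separate probe of Cdh2 was also higher, at 0.76 and 0.58 (adjusted p = 0.0286).

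Cdh4 encodes R-cadherin, named after the retina and also known from developing nephrons. Its signals were 995 and 507 in the RNA labelled cDKO, against 399.8 and 374 in control RNA. The male array carried the larger difference, with a log2 ratio of 1.12, against 0.41 in females (mean 0.77 ± 0.50, SD, n = 2; adjusted p = 0.0276). The 3 probes of Cdh4 did not give the same picture, and their first 30 of 60 bases are shown here to identify them, with positions on mm9.
Cdh4 probe 1, chr2:179630828-179630887, plus strand: ggcacagccctaacttgaatttcttaccac
Cdh4 probe 2, chr2:179633818-179633877, plus strand: ttttttgtaatcgtcaacagcacaaatatt
Cdh4 probe 3, chr2:179581965-179582024, plus strand: agaatcctattgacctgtacatctacgtca
Probe 2, downstream of probe 1, was higher at 1.26 and 0.46 (adjusted p = 0.0164). Probe 3, which lies upstream of both, had signals of 54.6 and 30.1 in the RNA labelled cDKO, against 41.0 and 34.2 in control RNA. Its ratios were 0.18 and -0.14, with a mean of 0.02 whose 95% interval ran from -0.33 to 0.38, and it was not called. The difference between the probes was not tested, and no mm9 annotation was used here to place the probes in exons or UTRs.

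Cdh1 encodes E-cadherin, the main adhesion molecule of epithelia such as the urothelium. Its signals were 6531 and 5501 in the RNA labelled cDKO, against 4087 and 4686 in control RNA, so that the RNA labelled cDKO was higher on both arrays. The log2 ratios were 0.68 and 0.24, and the mean of 0.46 did not pass (95% interval 0.092 to 0.83; adjusted p = 0.187). Cdh3, the P-cadherin gene of basal epithelial cells, had signals of 2854 and 1721 in the RNA labelled cDKO, against 1922 and 1679.55 in control RNA. Its ratio was 0.59 in males and -0.01 in females, so the arrays differed and no call was made. Cdh15, the M-cadherin gene of skeletal muscle, was dim, at 66.4 and 49.6 in the RNA labelled cDKO, against 28.8 and 42.6 in control RNA (adjusted p = 0.384).

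Type II classical cadherins had a median of 0.051, with 9 of 11 tested and 1 of them higher. That gene was Cdh11, which encodes OB-cadherin, a cadherin of mesenchymal cells and osteoblasts. Its signals were 6844 and 5516 in the RNA labelled cDKO, against 4202 and 3444 in control RNA. The arrays gave nearly the same log2 ratio, 0.72 and 0.68, and the mean was 0.70 ± 0.031 (SD, n = 2), or 1.63-fold (adjusted p = 0.0202). Cdh11 was read by 2 probes less than 1 kb apart, and they are shown because their ratios were unequal. The file places probe 2 by only part of its length.
Cdh11 probe 1, chr8:105157473-105157532, minus strand: tattttagtatacatacaaatatcagtatt
Cdh11 probe 2, chr8:105156895-105156927, minus strand: atagaactgtttgaaatcacaacagactga
Probe 2 was at 0.28 and 0.26 (mean 0.27, adjusted p = 0.481), in the same direction and not called.

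Cdh6, a cadherin of the developing kidney tubule, had signals of 455 and 310.5 in the RNA labelled cDKO, against 438 and 334 in control RNA. Its mean log2 ratio was -0.016 with a 95% interval from -0.37 to 0.33, and the arrays had opposite signs. Cdh22 was the lowest of the type II genes that had the same sign on both arrays, at a mean of 0.21 (adjusted p = 0.635). Cdh8, Cdh9, Cdh10, Cdh12 and Cdh20 had means between -0.006 and 0.30 and none was called. Cdh18 is uncertain: its brightest probe, designed on a predicted transcript record, read 54017 and 40481 in the RNA labelled cDKO, against 56159.6 and 43210.1 in control RNA, while its other probe was well above background in only 1 of 4 RNAs. Cdh7 and Cdh24 were not tested.

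Among the 5 other cadherins 3 were tested and 0 were called (limma, with 1 at an unadjusted p under 0.05). Cdh13 encodes T-cadherin, which is anchored by a lipid and has no cytoplasmic tail. It had signals of 614 and 349 in the RNA labelled cDKO, against 611 and 443 in control RNA, and a mean ratio of -0.16 (adjusted p = 0.745). Cdh26 was the highest of the class, at 0.52 and 0.47 (adjusted p = 0.121). Cdh29, which RefSeq lists as a synonym of Cdhr4, was the lowest, at -0.18 and -0.33. Cdh17 and Cdh23 were not well above background in any of the RNAs.

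Delta protocadherins held the largest changes in both directions, with 9 of 9 tested, 1 higher and 1 lower, and a median of -0.0094. Pcdh7 is a delta protocadherin best known from the nervous system. Its signals were 519.6 and 432 in the RNA labelled cDKO, against 1881 and 791 in control RNA, so the RNA labelled cDKO was lower on both arrays. The fall was larger on the male array, at -1.74, than on the female array, at -0.86. The mean was -1.30 ± 0.62 (SD, n = 2), or 2.47-fold lower, with a 95% interval from -1.73 to -0.88 (adjusted p = 0.000817).

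The array held 3 probes of Pcdh7, which are shown because the files assign them to different transcripts. Probes 1 and 3 are annotated to transcript variant 1 and lie near each other, and probe 2 is annotated to transcript variant 2 and lies far upstream of them.
Pcdh7 probe 1, chr5:58523420-58523479, plus strand: taatatggggctgcttaaatatcactggac
Pcdh7 probe 2, chr5:58120201-58120260, plus strand: aagttccattgcatgagaccttttagttgt
Pcdh7 probe 3, chr5:58520529-58520588, plus strand: aaacaggagaatataagccatctcctgtca
Probe 3 had signals of 46.9 and 53.6 in the RNA labelled cDKO, against 129 and 129 in control RNA, and was lower at -0.76 and -0.88 (adjusted p = 0.00745). Probe 2 had signals of 639 and 574 in the RNA labelled cDKO, against 954 and 663 in control RNA. Its ratios of -0.51 and -0.21 averaged -0.36 and did not pass (adjusted p = 0.319). Both probes of variant 1 were thus called lower and the probe of variant 2 was not, though all 3 were below 0 on both arrays. Whether the transcripts differ in response was not tested.

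Pcdh8, known as paraxial protocadherin from the mesoderm that forms somites, was the highest called gene. Its probe lies on mm9 at chr14:80166728-80166787, minus strand, and begins aatgtgttggaattgctcattgggatttta. Signals were low, at 202 and 106.8 in the RNA labelled cDKO, against 70.5 and 57.7 in control RNA, but all 4 were well above background. The log2 ratios of 0.98 and 0.70 gave a mean of 0.84 ± 0.20 (SD, n = 2), or 1.79-fold (adjusted p = 0.00682).

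Pcdh17, a delta protocadherin of axons and synapses, lay just outside the threshold and was named after its value was seen. Its signals were 2357 and 1529.5 in the RNA labelled cDKO, against 1154 and 1161 in control RNA. The ratios were 0.92 and 0.39 and the mean was 0.65 ± 0.38 (SD, n = 2; adjusted p = 0.05001). Pcdh1, a protocadherin of epithelia, was at 0.79 and 0.10 and not called (adjusted p = 0.251). All 3 probes of Pcdh9 had means below 0, from -0.39 to -0.15, and none was called. The X-linked genes Pcdh11x and Pcdh19, the second known from a human epilepsy, had means of -0.085 and -0.0094. Pcdh10 and Pcdh18, at -0.15 and 0.20, had opposite signs on the arrays.

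**Figure D2:**
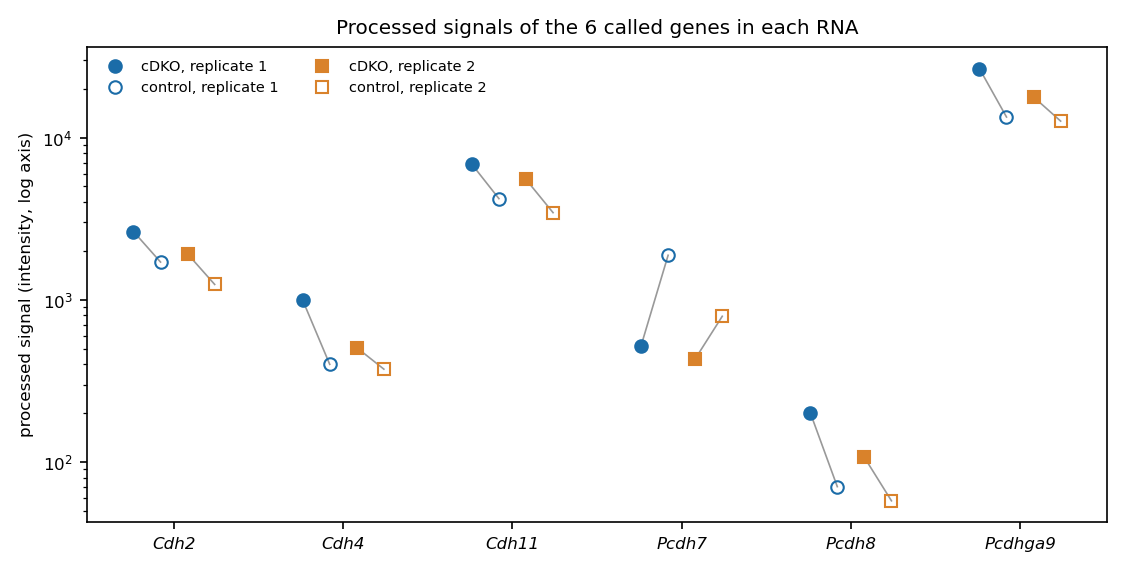
Processed signals (intensity, log axis) of the 6 called genes in each of the 4 RNAs, with filled symbols for RNA labelled cDKO and open symbols for control RNA, joined within an array. The line falls to the right for Cdh2, Cdh4, Cdh11, Pcdh8 and Pcdhga9 on both arrays and climbs to the right for Pcdh7, whose gap is wider on the male array.

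Of the other protocadherins, 2 of 3 were tested and 0 were called (limma, 0 at an unadjusted p under 0.05). Pcdh12, a protocadherin of vascular endothelium, was at 0.33 and 0.30 (adjusted p = 0.380), and Pcdh20 at 0.44 and 0.17 (adjusted p = 0.417). Pcdh15, a component of the tip links of hair cells, had 7 probes and none bright enough to be tested.

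The clustered protocadherins made up 35 of the 68 genes, and their beta cluster was measured almost completely. Of 22 beta genes 21 were tested and 0 were called (limma, 0 at an unadjusted p under 0.05). Their mean log2 ratios ran from -0.12 for Pcdhb14 to 0.22 for Pcdhb11, with a median of 0.035. Opposite signs on the arrays were seen for 12 of the 21, against 9399 of all 23345 tested genes, a difference not tested. The widest bounds of their 95% intervals were -0.60 and 0.57 on the log2 scale. Among those with the same sign on both arrays, the lowest was Pcdhb2, at -0.14 and -0.03.

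In the alpha cluster 3 of 7 genes were tested and 0 were called (limma, 1 at an unadjusted p under 0.05). Pcdhac2 had signals of 301 and 187 in the RNA labelled cDKO, against 136 and 139 in control RNA. Its ratios were 0.90 and 0.34 (mean 0.62, adjusted p = 0.0671). The RefSeq accessions that the file lists for this probe belong to 4 alpha genes, so it does not read Pcdhac2 alone. A second probe, listed for Pcdhac2 only, was at 0.44 and 0.21 (adjusted p = 0.368). Its signals were 41.5 and 16.7 in the RNA labelled cDKO, against 9.83 and 11.3 in control RNA. It was well above background only in the RNA labelled cDKO. It thus entered the test only through the group where it was higher, and its direction adds no support. Pcdha8, also read by a probe listed for several genes, was at 0.08 and 0.17.

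In the gamma cluster 3 of 6 genes were tested and 1 was higher. The probe named Pcdhga9 had signals of 26605 and 17791 in the RNA labelled cDKO, against 13382 and 12630.2 in control RNA. Its ratios were 0.94 and 0.54 and the mean was 0.74 ± 0.29 (SD, n = 2), or 1.67-fold (adjusted p = 0.0194). Its accessions belong to 4 gamma genes, and both Pcdhga9 probes lie downstream of the probe for Pcdhgc5, the last variable exon measured, so the signal is that of gamma transcripts and not of Pcdhga9 in particular. The second Pcdhga9 probe was at 0.85 and 0.15 (adjusted p = 0.181). Pcdhga1 and Pcdhga5, each read by a probe listed for a single gene, had means of -0.009 and -0.050.

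Probes of clustered genes thus fell into those listed for a single gene and those listed for several, a division made after the values were seen. Of the first kind 24 were tested, 0 were called (limma, 0 at an unadjusted p under 0.05) and the median was 0.031. Of the second kind 3 were tested, 1 was higher and the median was 0.62. The difference was not tested, and the accessions in the file cover only part of each cluster.

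**Figure D3:**
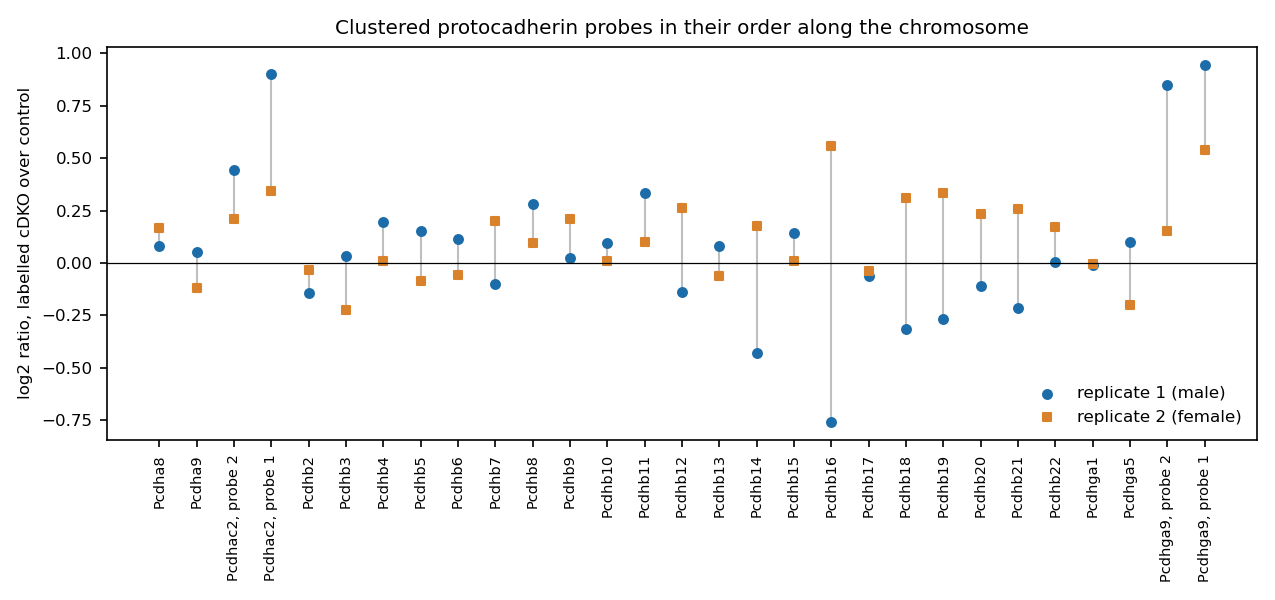
Log2 ratios of labelled cDKO over control RNA for every tested probe of the clustered protocadherins, ordered along the chromosome with equal spacing, with the male array as circles and the female array as squares. The beta genes scatter around 0, with Pcdhb16 at -0.76 and 0.56, and the probes of Pcdhac2 and Pcdhga9 are above 0 on both arrays.

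Across all classes, 8 genes had several tested probes. In each of the 8 the mean ratios of the probes had a single sign, and 0 had probes called in opposite directions. The same count over all genes with several tested probes is not given here. Single arrays could disagree, as Pcdh10 was at 0.22 and -0.51 at probe 1 and at -0.22 and 0.14 at probe 2. Probe 2 of Pcdhac2 was tested only through its signals in the RNA labelled cDKO. The sizes of the ratios also differed between probes, as the values of Cdh4, Cdh11 and Pcdh7 above show. The 13 genes that were not tested included 6 that were not well above background in any RNA, and 54 of the 55 tested genes were well above background in all 4 RNAs.

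**Figure D4:**
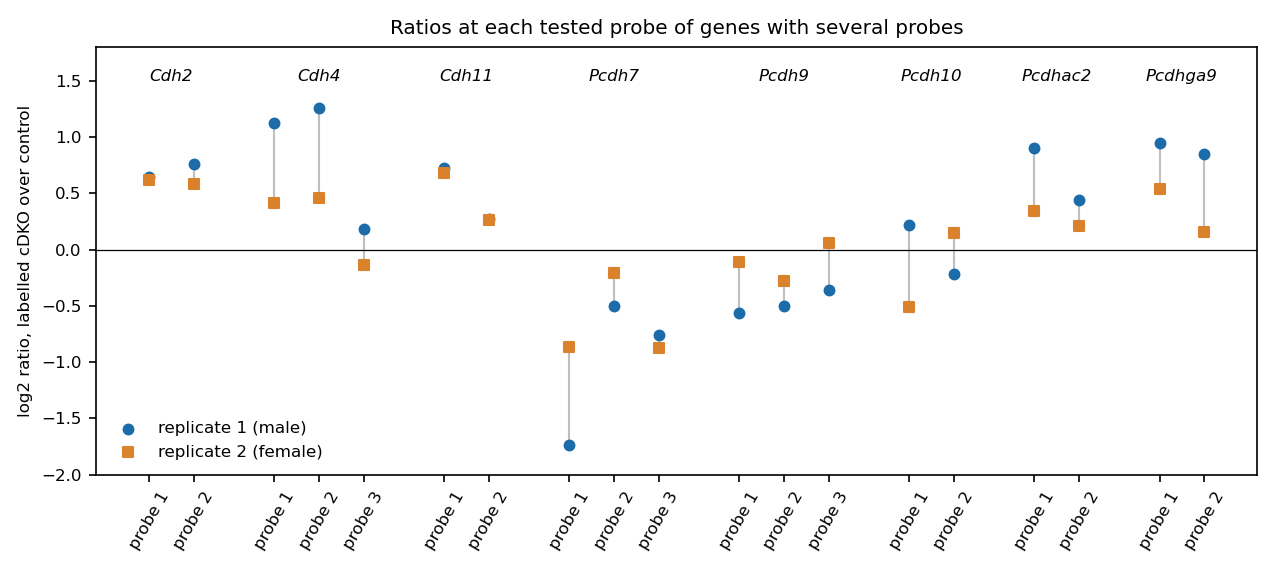
Log2 ratios of labelled cDKO over control RNA at each tested probe of the 8 genes with several tested probes, numbered from the brightest, with the male array as circles and the female array as squares. The probes of Cdh2 lie together, whereas probe 3 of Cdh4, probe 2 of Cdh11 and probe 2 of Pcdh7 lie nearer to 0 than probe 1 of the same gene.

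Most partners of the cadherins were not called, which also holds for all tested genes, of which 4.45% were called (2.18% higher, 2.27% lower). These shares stand beside every list below, and no difference from them was tested. Among catenins and related armadillo proteins, which bind the cadherin tail, 1 of 10 tested genes was higher and none was lower, with a list median of 0.17. That gene was Ctnna2, the alpha-catenin of neurons, with signals of 312 and 252 in the RNA labelled cDKO, against 133 and 124 in control RNA (0.97 and 0.86; mean 0.92, adjusted p = 0.00305). Ctnnd2, a delta-catenin of neurons, was at 0.59 (adjusted p = 0.0653) and Ctnna1, the alpha-catenin of epithelia, at 0.33 (adjusted p = 0.356). Ctnnb1, the gene of beta-catenin, was at 0.083. Genes of the desmosome, an epithelial junction, had 0 of 9 called (limma, 2 at an unadjusted p under 0.05), a median of 0.081, and the plakophilin gene Pkp1 at 0.40 and the desmoplakin gene Dsp at 0.37. Nectins and afadin, which form contacts beside cadherins, had 0 of 6 called (limma, 2 at an unadjusted p under 0.05) and a median of 0.11, with Pvrl2 at 0.43 and Pvrl1 at 0.39.

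In the list of giant and related cadherin-domain genes 1 of 13 was higher and 1 was lower, with a median of 0.14. Celsr1, which acts in planar cell polarity, was higher at 1.09 and 0.71 (adjusted p = 0.00486). Fat3, a giant cadherin known from neurons of the retina, was lower at -0.80 and -0.84 (adjusted p = 0.00714). Dchs1, the ligand of Fat4, was at 0.86 and 0.40 and did not pass (adjusted p = 0.0538).

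Of 8 known repressors of the E-cadherin gene, 1 was higher and none was lower, with a median of 0.049. Snai1, a zinc finger repressor of Cdh1, was higher at 1.31 and 0.72 (mean 1.01 ± 0.42, SD, n = 2; adjusted p = 0.00293). Twist2 was at 0.67 (adjusted p = 0.0529), Tcf3 at 0.62 (adjusted p = 0.0515) and Zeb1 at -0.34 (adjusted p = 0.372), and these did not pass. Cdh1 itself was at 0.46 and not called. Chromatin factors known to regulate the clustered protocadherins, among them Ctcf at 0.30 and Dnmt3b at 0.27, had 0 of 10 called (limma, 0 at an unadjusted p under 0.05) and a median of -0.0038.

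Markers of several cell types moved in the same samples. In bulk RNA, fewer cells of a type and less RNA per cell cannot be told apart. Of 11 smooth muscle markers 10 were lower, with a median log2 ratio of -2.19, and their summed signals were 118026 and 72488 in the RNA labelled cDKO, against 615902 and 373839 in control RNA. Pcdh7 had the direction of this list by its call. Its ratios were -1.74 and -0.86 (male, female), where the list medians were -2.19 and -2.18, and a link was not tested. Of 8 fibroblast markers 7 were higher, with a median of 0.91 and summed signals of 537960.0 and 468783 in the RNA labelled cDKO, against 264059 and 234023 in control RNA. Any gene called higher, Cdh2 and Cdh11 among them, has that direction by its call, so the match was fixed in advance. Of 10 tested nephron markers 7 were higher, with a median of 1.22 and summed signals of 14471 and 7277 in the RNA labelled cDKO, against 6379 and 6920.33 in control RNA. Cdh4 had that direction by its call. Its ratio was larger in males, as was the nephron median, at 1.29 in males against 0.86 in females. The ratios of Pcdh8 (0.98 and 0.70) and Pcdhga9 (0.94 and 0.54) were also larger in males, and a link to the list was not tested. No nephron marker was below background in all RNAs.

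The other lists moved less, except that of skeletal and cardiac muscle. Of 5 tested collecting duct markers 2 were higher (median 0.68), of 9 endothelial markers 2 (median 0.17) and of 7 tested Schwann cell and glial markers 1 (median 0.19). These lists hold 2 of the cadherins left out above. The endothelial marker Cdh5 was higher at 0.94 and 0.42 (limma, adjusted p = 0.0391), and the glial marker Cdh19, at -0.26 and 0.37, was not called. Urothelial markers had 0 of 14 called (limma, 5 at an unadjusted p under 0.05) and a median of 0.21. Their means ran from -0.32 for Trp63 to 0.58 for Krt5, and Cdh1 was at 0.46. Neuronal markers had 0 of 9 called (2 at an unadjusted p under 0.05) and a median of 0.13, and leukocyte markers 0 of 7 (1 at an unadjusted p under 0.05) and a median of -0.16. Of 8 tested skeletal and cardiac muscle markers 6 were lower (median -2.60), while Myog and Pax7 were not well above background. Among the lower genes, Actc1 had signals of 96313 and 67530 in control RNA, and Tnnt2 had 47782 and 35077. Myod1 and Myh3, at means of 0.011 and 0.41, were not called. The part of any of these lists in the cadherin results was not tested.

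Promoters in the RefSeq table of GRCm38.p6, from 250 bases before to 50 bases after a start site, were matched to 22 of the 68 genes, with 25 promoters. They were searched on both strands for the T-box motif GGTGTGA, the E-box CACCTG that SNAI proteins are known to bind, and the TATA box TATAAA. The T-box letters were in 3.98% of 32851 promoters and, among these genes, in that of Cdh7, which was not tested. The E-box letters were in 20.2% of all promoters and in those of Cdh7, Pcdh15 and Pcdh7. The TATA letters were in 13.6% of all promoters and in those of Pcdh15 and Pcdh8. The promoters of Cdh1, Cdh2, Cdh4, Cdh11 and Pcdhga9 were not searched. The promoters of the called genes that changed most in each direction are shown, with the matched letters in capitals.
Pcdh7, chr5:57717831-57718130, plus strand: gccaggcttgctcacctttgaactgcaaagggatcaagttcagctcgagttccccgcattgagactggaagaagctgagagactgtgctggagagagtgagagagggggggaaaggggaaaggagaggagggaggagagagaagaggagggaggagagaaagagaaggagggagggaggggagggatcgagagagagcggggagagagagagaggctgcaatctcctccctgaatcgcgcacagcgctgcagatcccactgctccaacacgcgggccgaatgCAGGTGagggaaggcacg
Pcdh8, chr14:79771263-79771562, minus strand: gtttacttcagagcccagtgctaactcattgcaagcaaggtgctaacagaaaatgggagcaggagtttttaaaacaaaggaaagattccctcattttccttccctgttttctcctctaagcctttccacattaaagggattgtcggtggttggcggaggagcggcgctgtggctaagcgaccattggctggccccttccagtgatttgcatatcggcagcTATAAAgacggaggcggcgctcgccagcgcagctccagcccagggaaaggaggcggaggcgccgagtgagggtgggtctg
The capitals mark the reverse strand of the E-box in the promoter of Pcdh7, starting 32 bases after the start site, and the TATA letters in that of Pcdh8, starting 30 bases before it. No motif overlapped another in these 2 promoters, and a match is a description of the letters only.

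With the processed signals, under median centring and in the deposited value table, 0 of the 55 genes were called by limma. The mean log2 ratios of the 6 genes kept their direction there, and their size moved by gene and setting. Pcdh7 was at -1.36 with the processed signals and -1.14 with median centring, against -1.30 as reported. Pcdh8 was at 1.20 and 0.85, against 0.84, and Cdh2 at 0.62 and 0.82, against 0.63. The adjusted p-values were higher, at 0.184 and 0.0554 for Pcdh7, 0.121 and 0.415 for Pcdh8, and 0.263 and 0.471 for Cdh2. On the whole table these settings also gave fewer calls, 94 higher and 159 lower with the processed signals and 163 and 157 under median centring, against 510 and 530, and the higher share of the calls was 37.2% with the processed signals and 49.0% as reported.

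**Figure D5:**
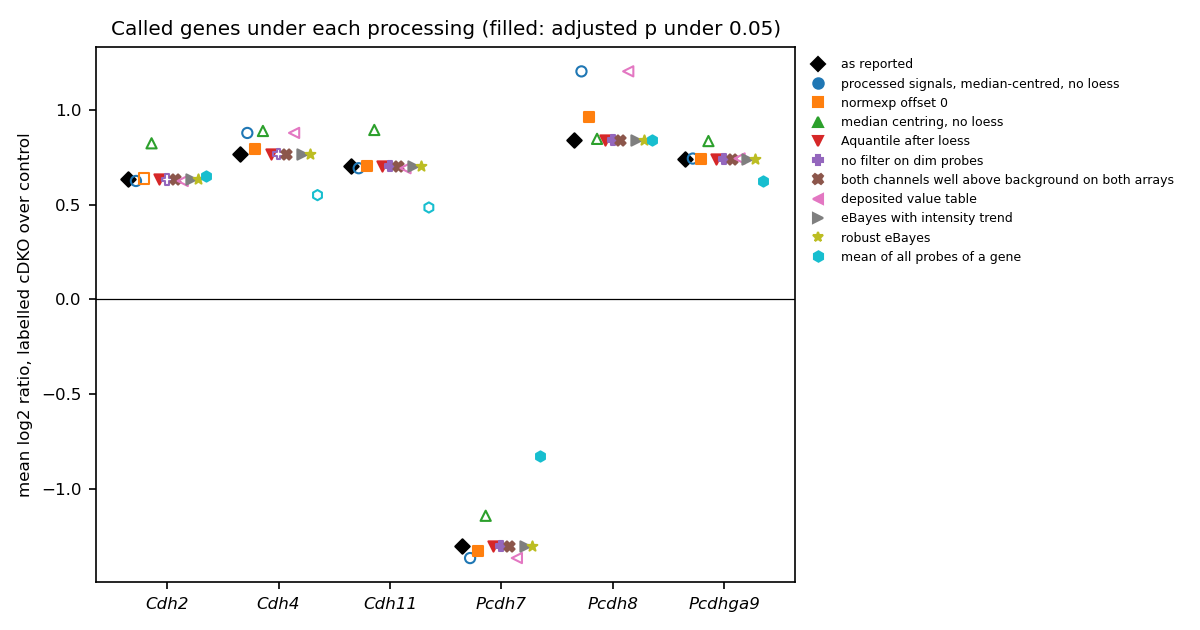
Mean log2 ratio of labelled cDKO over control RNA for the 6 called genes as reported and under 10 other settings, of which 5 (6 for Pcdh8) leave the ratio itself as it is, with filled symbols where the adjusted p was under 0.05 and open symbols where it was not. Every symbol of Pcdh7 lies below 0 and every symbol of the other genes above 0, and the open symbols include those of the processed signals, median centring and the deposited value table.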

How the data were processed

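Total RNA was measured on 2 two-colour Agilent arrays. Images were read by Agilent Feature Extraction 10.7.3.1, per the file headers and the submitters' processing notes. The deposited files hold a mean spot intensity and a background intensity per channel, a processed signal intensity (background-subtracted and dye-normalized by that program, per the file headers) and its deposited log10 ratio of red over green. The value table deposited by the authors holds a score of unstated scale. Compared with the scanner values, each column was the signed fold (labelled cDKO over control) of the processed signals within 0.001 log2 for 100% of the probes with signals over 100, and the median of each column was 1. How the authors treated dimmer signals was not examined here. Probe coordinates are on mm9, per the file headers.

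With limma 3.58.1 in R 4.3.3, the mean intensities were background-corrected by normexp (offset 50) and loess-normalized array by array, with the 1377 control spots and the 272 and 226 outlier spots at weight 0. Spots of a probe were averaged, and 29274 of 39429 probes were tested, those well above background in the RNA labelled cDKO on both arrays or in control RNA on both. Log2 ratios, labelled cDKO over control, were tested against 0 (lmFit and eBayes, two-sided, 1 residual and 13.9 prior degrees of freedom, Benjamini-Hochberg, threshold 0.05), so p-values depend mainly on the variance shared across probes. Intervals are limma's 95% intervals. A gene is its brightest probe, so levels of different probes were not compared. Slide and scan held both arrays and could not be blocked.

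Promoters on chromosome 18, where the clustered protocadherins lie, were left out of the motif search. Genes named are all called ones, Cdh1, Cdh2, Cdh3, Cdh4, Cdh6, Cdh11, Cdh13 and Cdh15, the highest and lowest of each class with the same sign on both arrays, and up to 4 genes of each companion list, besides those said to be named after their values were seen or given for completeness. The genes, classes and lists were chosen with earlier results of these data known. The alternatives were the processed signals, offset 0, median centring, Aquantile scaling, no filter or a stricter filter on dim probes, an intensity trend, the deposited value table, robust eBayes, the mean of a gene's probes, and each array alone.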

Additional observations from a re-analysis of the deposited data

Results flagged for a closer look

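Pcdhb16, a beta protocadherin, went more than 0.5 log2 units in opposite directions on the arrays. Its log2 ratio of labelled cDKO over control RNA was -0.76 in males and 0.56 in females. The processed signals were 521 and 485 (male, female) in the RNA labelled cDKO, against 906 and 317 in control RNA. Each kind of RNA was in a different dye on each array, so which of them differed between the arrays cannot be told. The difference between the arrays was not tested, and sex, dye orientation and replicate cannot be told apart.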

How the results depend on the processing

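The calls rest on 2 arrays with 1 residual degree of freedom. The count of called genes was 0 higher and 0 lower with the processed signals, under median centring and in the deposited value table, and 3 higher with no filter on dim probes, against 5 higher and 1 lower as reported. It was 7 higher with the stricter filter, 7 with robust eBayes, 6 with an intensity trend, and 4 with offset 0 and with the mean of a gene's probes, each with 1 lower. The median log2 ratio of the genes was 0.0679 with the processed signals, 0.121 under median centring (where the median of all genes was 0.066, and 0.22 on the male array), 0.0339 with no filter and 0.0682 in the deposited value table. On a single array it ranged from 0.0817 to 0.101, and 0 to 1 genes were at least 2-fold higher and 0 to 1 at least 2-fold lower.

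All 6 called genes kept their direction in the settings that change the ratio, which were 5 (4 for Pcdh8, which has 1 probe), of which the processed signals and the deposited value table hold nearly the same values. Aquantile scaling leaves log ratios as they are and could change no call. Of the other 9 settings, Pcdh7, Pcdh8 and Pcdhga9 kept their call in 6, Cdh11 in 5, and Cdh2 and Cdh4 in 4. Besides the 3 settings with no call, Cdh2 lost its call with offset 0 and with no filter, Cdh4 with no filter and with the mean of its probes, and Cdh11 with the mean of its probes. Their lowest and highest adjusted p were 2.52e-05 and 0.42 for Pcdh7 and 0.019 and 0.471 for Cdh2. Pcdh17 was called in 4 of these 9 settings and Pcdhac2 in 2. Cdh6 turned to 0.0889 under median centring (adjusted p = 1.00). In the whole table an intensity trend gave 931 higher and 663 lower genes, and the deposited value table gave 0 by limma, with 2431 at an unadjusted p under 0.05. The cause of these differences was not tested. Each ratio is already paired within an array, since both RNAs of a replicate share it.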

Other observations

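Pcdhgc5, the last variable exon of the gamma cluster, was well above background in both RNAs of the male array, at 69.2 in the RNA labelled cDKO and 57.1 in control RNA. On the female array it was well above background in neither, at 5.38 in the RNA labelled cDKO and 6.41 in control RNA. Its log2 ratios were 0.09 and -0.15, and it was not tested for a difference between the RNAs. The array and the sex of the embryos cannot be told apart here.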
